A study of Homo sapiens with 108 samples.

Results

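The 43 genes described here build and divide the mitotic cell: the chromosomal passenger complex, the mitotic kinases, the spindle checkpoint and anaphase-promoting complex, spindle and centrosome proteins, the cytokinesis machinery, condensin with other chromosome proteins, and FOXM1, a transcription factor of the same programme. They were chosen by symbol for their function, not by a threshold on a measured value, and each is represented by its probe set with the highest mean log2 intensity over all arrays. They are 43 of the 19775 genes that the array annotation names singly, and 22 of them have more than 1 probe set. RNA came from 4 non-Hodgkin lymphoma cell lines, each given DMSO, the vehicle, or EPZ6438 (tazemetostat) at LCC or at 10xLCC, for 2, 4 or 6 days, with 3 arrays in each of the 36 groups. EPZ6438 inhibits EZH2, the enzyme of Polycomb repressive complex 2 that methylates lysine 27 of histone H3. WSU-DLCL2, SU-DHL6 and Karpas422 (named WSU_DLCL2, SUDHL6 and KARPAS_422 in the labels) carry a mutation of EZH2 residue Y641, which Pfeiffer lacks, as the submitters' series text states; each is a single established line, and no group of any line was left without the vehicle or the inhibitor. Lacking a Y641 mutation does not exclude another EZH2 mutation, so Pfeiffer is not treated here as EZH2 wild type. The sources used here do not give the concentration behind LCC, which was set line by line, so doses are not comparable between lines.

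As a cell leaves G2, aurora and polo-like kinases assemble the spindle, condensin compacts the chromosomes, and the spindle checkpoint holds back the anaphase-promoting complex until every kinetochore is attached. The complex then marks securin for destruction, separase cuts cohesin, and the central spindle and contractile ring divide the cell. Most of these genes are transcribed in G2 and mitosis under MuvB, B-MYB and FOXM1, through promoter elements called CHR (cell cycle genes homology region) and through CCAAT boxes, so their RNA is low in cells that do not divide.

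The promoters of the members shown in detail carry many of these letters, and they are printed here to show the elements. The choice of genes read no sequence, but it took genes of the function described above. An excess of these elements is therefore not independent of the choice. RefSeq promoter windows of 300 bases, 250 before to 50 after the annotated start (GRCh38.p14), were given for 34 of the 43 genes, with no entry for BIRC5, AURKA, TPX2, TTK, PBK, BUB3, UBE2C, RACGAP1 and FOXM1. A CHR element, searched as TTTGAA or TTCGAA on both strands, lay in 25 of the 34 windows (73.5%) and in 4539 of 27305 windows of all genes (16.6%). The 27305 windows were not limited to the genes of the array. CCAAT, also on both strands, lay in 23 of the 34 (67.6%) and in 35.7% of all windows. Both occurred together in 18 of the 34 (52.9%) and in 6.58% of all, and a CHR element lay between 100 bases before and 50 after the start in 22 of the 34 (64.7%) and in 7.43% of all. These are letter matches, not measured binding. Each sequence below runs 5′ to 3′ on the gene's strand from 150 bases before to 30 after the start, with CHR and CCAAT matches that lie whole in it in capitals; ATTGG and TTCAAA are the same elements on the opposite strand. The windows are chr16:23678739-23678918 for PLK1, chr5:892734-892913 for TRIP13, chr10:93496462-93496641 for CEP55 and chr2:96335616-96335795 for NCAPH, all on the plus strand, and chr2:112764580-112764759 for CKAP2L, chr10:128126394-128126573 for MKI67 and chr17:8210196-8210375 for AURKB, all on the minus strand.
PLK1: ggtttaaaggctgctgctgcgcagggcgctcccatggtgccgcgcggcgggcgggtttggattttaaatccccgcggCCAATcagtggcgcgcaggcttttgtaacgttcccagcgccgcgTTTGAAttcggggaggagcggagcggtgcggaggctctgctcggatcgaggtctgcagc
TRIP13: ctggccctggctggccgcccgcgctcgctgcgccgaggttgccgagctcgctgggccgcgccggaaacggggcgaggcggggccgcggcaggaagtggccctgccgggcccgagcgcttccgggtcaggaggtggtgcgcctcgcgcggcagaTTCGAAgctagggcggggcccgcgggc
CEP55: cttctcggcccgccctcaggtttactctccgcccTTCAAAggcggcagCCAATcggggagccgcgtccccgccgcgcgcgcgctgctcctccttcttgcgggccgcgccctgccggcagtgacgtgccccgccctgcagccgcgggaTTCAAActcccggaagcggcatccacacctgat
CKAP2L: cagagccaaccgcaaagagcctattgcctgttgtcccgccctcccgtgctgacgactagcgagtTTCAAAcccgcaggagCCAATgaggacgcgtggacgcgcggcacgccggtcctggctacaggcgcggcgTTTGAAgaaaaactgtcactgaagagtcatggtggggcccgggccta
MKI67: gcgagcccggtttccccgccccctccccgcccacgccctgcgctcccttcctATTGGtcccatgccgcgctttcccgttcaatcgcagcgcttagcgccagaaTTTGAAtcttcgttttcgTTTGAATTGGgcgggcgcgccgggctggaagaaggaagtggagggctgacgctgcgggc
NCAPH: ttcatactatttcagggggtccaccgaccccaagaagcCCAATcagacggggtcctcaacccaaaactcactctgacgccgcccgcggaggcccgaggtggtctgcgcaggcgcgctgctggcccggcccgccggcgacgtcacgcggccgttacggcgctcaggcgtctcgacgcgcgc
AURKB: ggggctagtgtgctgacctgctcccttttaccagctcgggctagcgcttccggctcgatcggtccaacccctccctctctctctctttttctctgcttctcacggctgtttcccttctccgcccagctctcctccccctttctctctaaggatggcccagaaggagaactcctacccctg
PLK1 has a CCAAT box upstream of a single CHR element, CEP55 and CKAP2L have 2 CHR elements with a CCAAT box between them, and in MKI67 the second CHR element runs into an inverted CCAAT box and shares 1 base with it. TRIP13 has its CHR element just after the start. In the printed stretch NCAPH has only CCAAT, and AURKB has no whole element. The AURKB gene is annotated up to position 8210575 on the minus strand, upstream of its whole window (8210176 to 8210475). Its outermost start was therefore not searched, and the lack of an element in this stretch does not describe that promoter. SGO1, SMC2 and CKAP2 also extend upstream of their windows.

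The arrays of a group lay close together, with a median root mean square distance from the group's other arrays of 0.171 to 0.179 (log2) in the 4 lines. Pfeiffer LCC day 6 replicate B stood apart at 0.699. The beta-actin ratio, the log2 signal of the 3′ control probe set over that of the 5′ one and a sign of RNA degradation when high, was between -0.21 and 0.26 on the WSU-DLCL2 arrays and between -0.15 and 0.06 on the Pfeiffer arrays. In Karpas422 at day 6 it averaged 1.25 with DMSO, 2.37 with LCC and 2.25 with 10xLCC, against -0.01 to 0.03 at day 4, and in SU-DHL6 at day 6 it was -0.18 with DMSO and 0.34 with 10xLCC. All 5 B cell markers were present in every line, the lowest at 8.35 in Pfeiffer. Of 6 markers each, 3 to 4 T cell, 2 myeloid and 4 to 5 epithelial or stromal ones had a mean of 6 or more, with list medians of 5.94 to 7.0, 5.58 to 5.64 and 6.89 to 7.65. EPCAM, an epithelial marker, stood at 11.81 in Pfeiffer and 3.84 to 3.93 in the other lines, and CD3G, a T cell marker, at 8.58 in Karpas422 and 5.03 to 5.08 elsewhere. The labels do not say whether replicates A, B and C were separate cultures, so p-values measure the spread between these samples, which may be technical.

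With DMSO the genes were well expressed in each line. Their median level was 10.81 in WSU-DLCL2, 10.99 in SU-DHL6, 10.77 in Karpas422 and 10.68 in Pfeiffer, where the median of all genes was 7.0 to 7.13. Probe sets differ in their response, so the order of genes within a line is not an order of RNA amounts. Mean log2 intensity was at least 8 for 42, 43, 41 and 42 of the 43 genes in the 4 lines in the same order.

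At the higher dose nearly all of these genes fell in the 3 Y641 lines, and none passed the test in Pfeiffer in the main fit. Fell, rose and called refer here to a limma adjusted p below 0.05 over all genes tested in a line. Changes are log2 differences from DMSO of the same day. Each count of the main fit over the 43 genes is set beside the share of all genes tested that were called lower. Counts from altered fits carry that share only where it is printed. In WSU-DLCL2 the fall was early: 31 of 43 genes fell with 10xLCC at day 2 (14.3% of all genes), all 43 at day 4 (14.7%) and 42 at day 6 (19.2%), with median changes of -0.46, -1.80 and -1.41. In Karpas422 it was slower, with 1 gene at day 2 (1.95% of all genes), 39 at day 4 (15.2%) and 41 at day 6 (19.2%), and medians of -0.17, -0.64 and -1.48. SU-DHL6 was the slowest: 0 genes fell at day 2 by limma (0.783% of all genes; 0 also at an unadjusted p under 0.05), 16 at day 4 (9.64%) and 37 at day 6 (26.7%), with medians of 0.12, -0.22 and -0.76. The median over all genes tested in these 9 comparisons lay between -0.11 and 0.05. In Pfeiffer limma called 0 of the 43 at any of the 3 days (0% of all genes at day 2, 0.0158% at day 4, 0.0581% at day 6), with medians of 0.01, -0.11 and -0.10. The 0 in Pfeiffer depended on the fit. With arrays centred on bright genes (log2 at least 8 on every array), 6 fell and 1 rose at day 4. At day 6, 4 fell with that centring, when 252 (day 4) and 140 (day 6) of all genes were called lower. Leaving out LCC day 6 replicate B also gave calls in Pfeiffer, listed below. All values here are RNA levels of whole cultures, in which fewer cells in G2 and mitosis and less RNA per cell cannot be told apart.

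**Figure D1:**
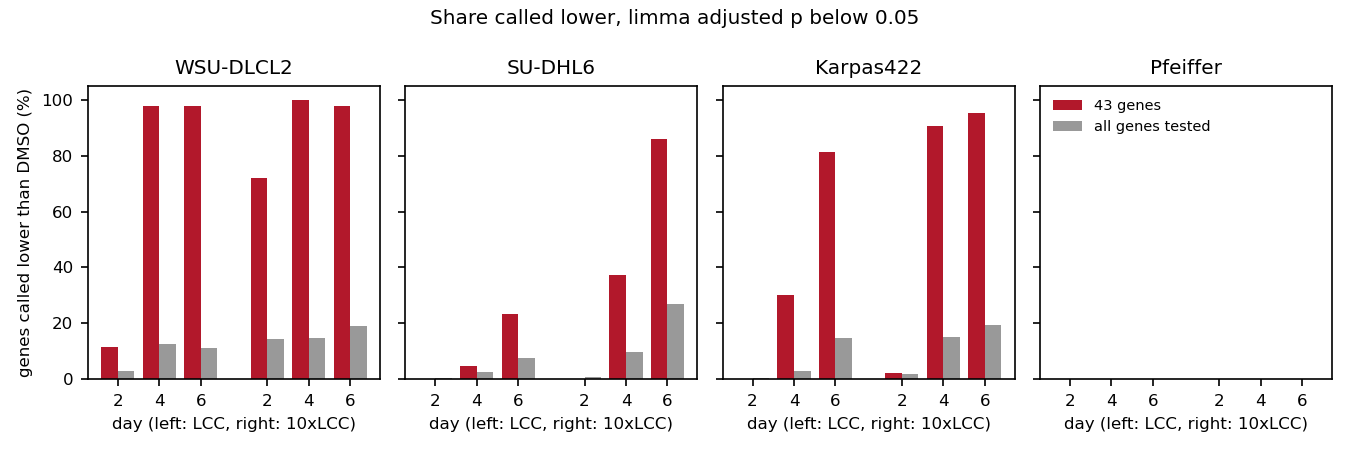
Percent of genes called lower than DMSO of the same day (limma adjusted p below 0.05) for the 43 genes (red) and for all genes tested (grey), by line, dose and day. The red bars reach 100% in WSU-DLCL2 at 10xLCC day 4, 86.0% in SU-DHL6 and 95.3% in Karpas422 at 10xLCC day 6, and stay at 0 in Pfeiffer.

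With 10xLCC at days 4 and 6, 39 and 35 of the genes fell 2-fold or more in WSU-DLCL2 (2.46% and 2.49% of all genes), 3 and 37 in Karpas422 (0.768% and 4.26%), and 0 and 13 in SU-DHL6 (0.169% and 3.41%). At day 4, 15 genes fell in all 3 Y641 lines (2.91% of the 18721 genes tested in all 3), 25 in 2 of them (7.26%) and 3 in 1 (16.5%). At day 6, 36 genes fell in all 3 (8.58%) and 6 in 2 (9.27%), among them SMC4, which rose in the other, and CKAP2 fell in none. Averaged over the 3 lines at day 6, the deepest falls were those of DLGAP5 (-2.01), PBK (-1.97), TRIP13 (-1.89), MAD2L1 (-1.87), PLK4 (-1.79) and SMC2 (-1.77). DLGAP5, PBK, MAD2L1 and SMC2 had also changed by -1.59, -1.22, -2.21 and -1.16 in Karpas422 with DMSO alone from day 2 to day 6, when the beta-actin ratio rose to 1.25, and the part of RNA quality in this order was not tested.

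**Figure D2:**
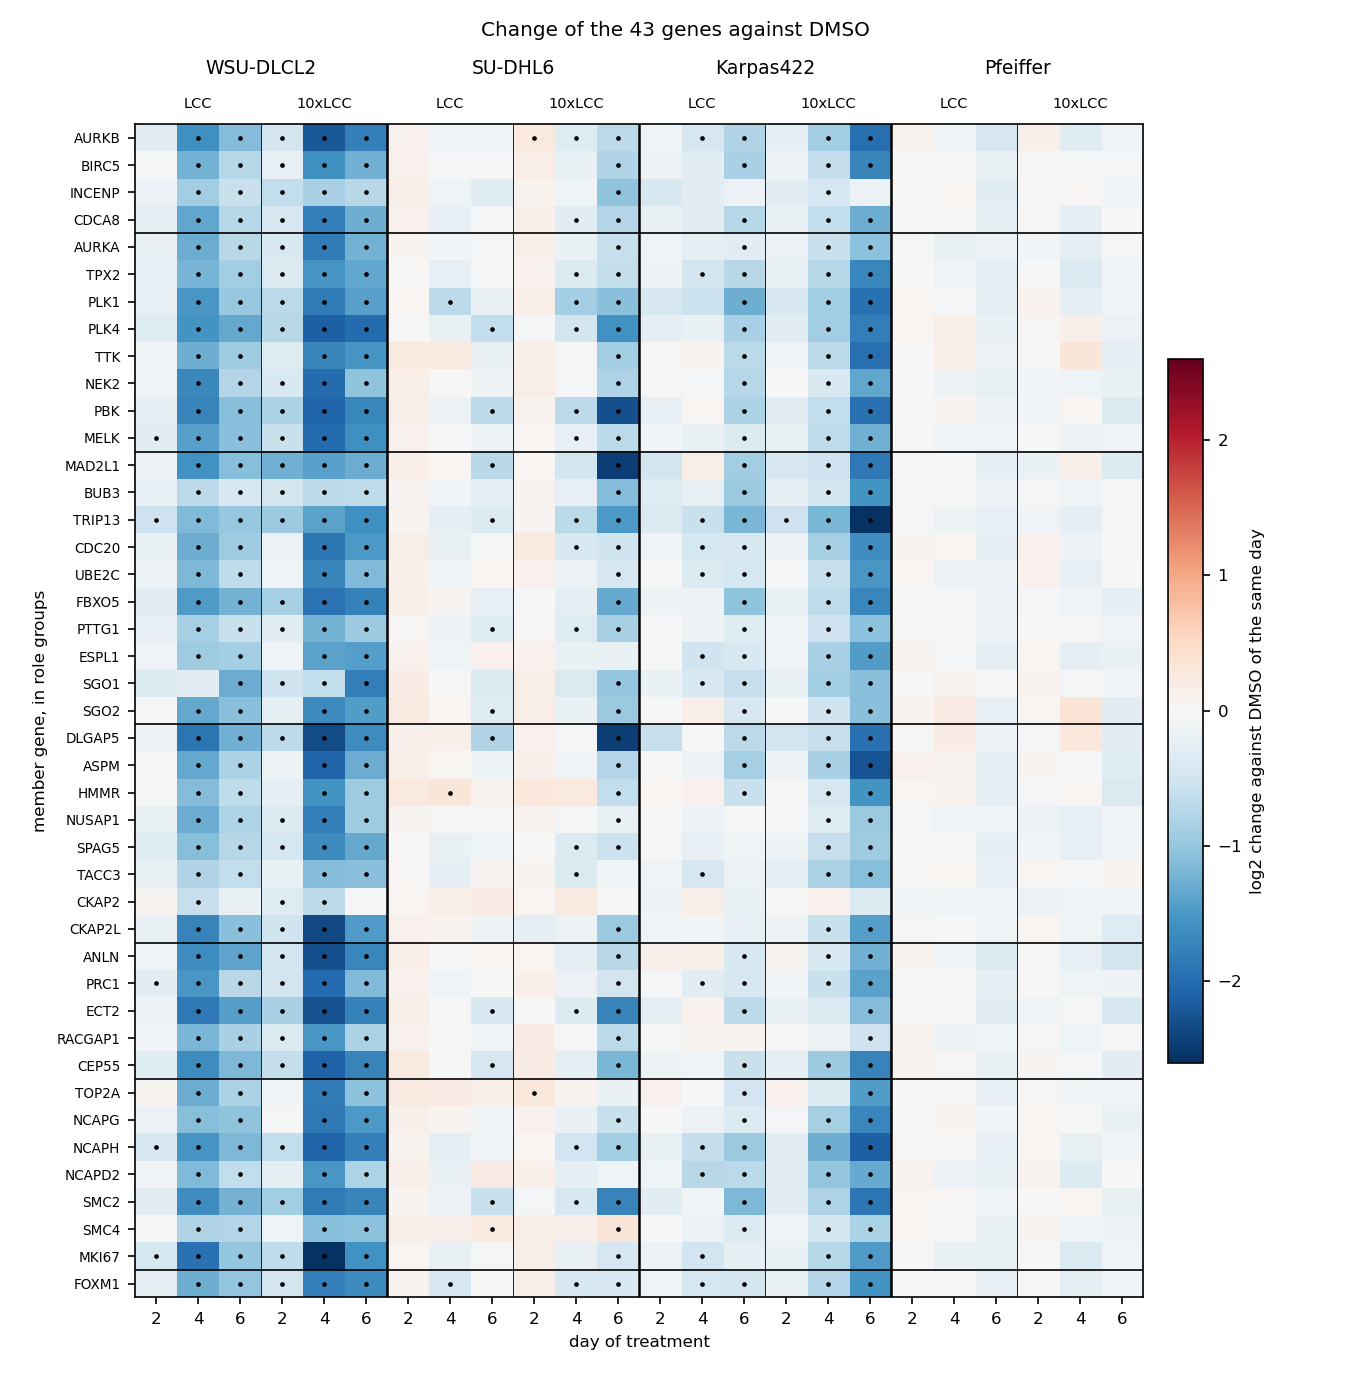
Log2 change of each of the 43 genes against DMSO of the same day, by line, dose and day, with genes in role groups; blue is lower, red is higher, and a dot marks a limma adjusted p below 0.05. The WSU-DLCL2 columns are darkest at day 4, the SU-DHL6 and Karpas422 columns at day 6, and the Pfeiffer columns hold no dot.

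The centring of the arrays shifts all values of a comparison together. When each array was centred on its bright genes (log2 at least 8 on every array), the median of all genes at 10xLCC day 6 moved from 0.02 to 0.17 in WSU-DLCL2, from -0.11 to 0.05 in SU-DHL6 and from -0.03 to 0.20 in Karpas422. The share of all genes called lower then dropped from 19.2% to 13.8%, from 26.7% to 15.6% and from 19.2% to 12.4%, while 42, 35 and 41 of the 43 genes still fell. The median change of the 43 went from -1.48 to -1.25 in Karpas422, from -0.76 to -0.60 in SU-DHL6 and from -1.41 to -1.26 for WSU-DLCL2. The split of all called genes changed with it, for Karpas422 from 3465 higher and 3629 lower to 6361 higher and 2351 lower, for SU-DHL6 from 3734 and 5051 to 5311 and 2952, and for WSU-DLCL2 from 3199 and 3609 to 5425 and 2612. At 10xLCC day 4 in SU-DHL6 that centring gave 12 genes that fell and 3 that rose in place of 16 and 0, with 7.64% of all genes called lower and a median of -0.12 in place of -0.22. In Karpas422 it gave 31 in place of 39 at 10xLCC day 4 (8.48% of all genes) and, at LCC day 6, 25 that fell and 1, RACGAP1, that rose in place of 35 and 0 (8.87%).

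The beta-actin ratio moved with dose in SU-DHL6 at day 6, and with both dose and time in Karpas422. With the beta-actin ratio as a covariate, 17 of the 43 genes fell in SU-DHL6 at 10xLCC day 6 in place of 37, while the share of all genes called lower went from 26.7% to 2.92%; the median change of the 43 was -0.63 with the covariate and -0.76 without. The 17 included TRIP13 (-1.02 ± 0.19), CEP55 (-1.12 ± 0.22), PBK (-1.58 ± 0.24) and DLGAP5 (-1.29 ± 0.30, all SE). DLGAP5 had been -2.45 without the covariate. The 20 genes no longer called were BIRC5, INCENP, AURKA, TPX2, PLK1, NEK2, CDC20, UBE2C, SGO1, SGO2, HMMR, NUSAP1, SPAG5, CKAP2L, ANLN, PRC1, RACGAP1, NCAPG, MKI67 and FOXM1. The counts by role group given below for this fit stand beside the same 2.92% of all genes. In Karpas422 at 10xLCC day 6 the covariate left 41 genes called, with a median of -1.29, and the share of all genes is not given here. WSU-DLCL2 gave 42 genes with the covariate at day 6, also without that share. At day 2, when its mean ratio was -0.07 with DMSO and 0.17 with 10xLCC, 25 genes fell with the covariate in place of 31, with 8.05% of all genes called lower in place of 14.3% and a median of -0.40. The part of RNA quality in the SU-DHL6 result was not tested beyond this.

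The chromosomal passenger complex corrects faulty kinetochore attachments and later marks the cell midzone. At 10xLCC day 6 all 4 members fell in WSU-DLCL2 (19.2% of all genes) and SU-DHL6 (26.7%), and 3 of 4 in Karpas422 (19.2%). AURKB is the kinase of the complex, INCENP its scaffold, and BIRC5 (survivin) and CDCA8 (borealin) its targeting subunits. The DMSO arrays of WSU-DLCL2 at day 4 read 9.97, 10.18 and 10.11 for AURKB and the 10xLCC arrays 7.91, 7.90 and 7.82; it fell by 2.21 ± 0.09 (SE; limma adjusted p 1.2e-15). AURKB in SU-DHL6 at day 6 was 10.49, 10.47 and 10.62 with DMSO and 9.92, 9.79 and 9.79 with 10xLCC, and fell by 0.69 ± 0.08 (SE; limma adjusted p 5.6e-08). For AURKB, Karpas422 showed 10.69, 10.57 and 10.58 with DMSO and 8.78, 8.45 and 8.68 with 10xLCC at day 6, and the level fell by 1.97 ± 0.11 (SE; limma adjusted p 1e-13). In each of these lines the 10xLCC arrays all lay below the DMSO arrays, by more than 1 log2 unit in WSU-DLCL2 and Karpas422 and by less in SU-DHL6. AURKB in Pfeiffer at day 6 was 9.21, 9.24 and 9.16 with DMSO and 9.03, 9.08 and 9.21 with 10xLCC, and differed by -0.09 ± 0.17 (SE; limma adjusted p 1), which did not pass the test. The Pfeiffer groups overlapped at day 6, and the Pfeiffer level was already lower than in the other lines with DMSO. At day 4 the Pfeiffer AURKB arrays read 9.21, 9.26 and 8.93 with DMSO and 8.81, 8.78 and 8.86 with 10xLCC. There every treated array was below the DMSO arrays, and AURKB was not called. A second AURKB probe set fell by 1.37 in WSU-DLCL2 and by 1.43 in Karpas422 but was 0.51 ± 0.18 higher (SE; limma adjusted p 0.021) in SU-DHL6. BIRC5 changed by -1.24 ± 0.07, -0.79 ± 0.09 and -1.71 ± 0.16 (SE) at day 6 in WSU-DLCL2, SU-DHL6 and Karpas422, and CDCA8 by -1.27 ± 0.09, -0.77 ± 0.09 and -1.30 ± 0.12. Of the 4 calls in SU-DHL6, those of AURKB and CDCA8 held with the beta-actin covariate. INCENP had -0.15 ± 0.15 in Karpas422 at day 6 (limma adjusted p 0.49), against -0.45 ± 0.15 at day 4, when it was called. Both sides were lower at day 6: its DMSO mean went from 8.02 at day 4 to 7.38, and its 10xLCC mean from 7.57 to 7.23.

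All 8 mitotic kinases and activators fell at 10xLCC day 6 in WSU-DLCL2 (19.2% of all genes), SU-DHL6 (26.7%) and Karpas422 (19.2%). The group medians were -1.48, -0.85 and -1.74 in that order. PLK1 drives mitotic entry and centrosome maturation. The DMSO arrays of WSU-DLCL2 at day 4 read 10.51, 10.49 and 10.29 for PLK1 and the 10xLCC arrays 8.83, 8.54 and 8.44; it fell by 1.83 ± 0.12 (SE; limma adjusted p 1.1e-11). PLK1 in SU-DHL6 at day 4 was 10.52, 10.06 and 10.87 with DMSO and 9.43, 9.60 and 9.81 with 10xLCC, and fell by 0.88 ± 0.15 (SE; limma adjusted p 0.00013). For PLK1, Karpas422 showed 10.28, 9.94 and 10.17 with DMSO and 8.40, 8.06 and 8.09 with 10xLCC at day 6, and the level fell by 1.95 ± 0.19 (SE; limma adjusted p 2.5e-09). The treated arrays lay below every DMSO array in each case, and the SU-DHL6 DMSO arrays at day 4 were the most scattered. PLK1 was the member with the largest fall in SU-DHL6 at day 4, when the median over the 43 was only -0.22. PLK1 in Pfeiffer at day 6 was 11.04, 11.01 and 11.00 with DMSO and 10.78, 11.03 and 11.01 with 10xLCC, and differed by -0.08 ± 0.13 (SE; limma adjusted p 1), which did not pass the test. These Pfeiffer groups overlapped at day 6. At day 4 the Pfeiffer arrays read 10.85, 10.77 and 10.67 for PLK1 with DMSO and 10.53, 10.60 and 10.46 with 10xLCC. There every treated array was below the DMSO arrays, and PLK1 was not called. AURKA assembles the spindle poles and is switched on by TPX2. The DMSO arrays of WSU-DLCL2 at day 4 read 12.09, 12.26 and 12.15 for AURKA and the 10xLCC arrays 10.38, 10.30 and 10.40; it fell by 1.81 ± 0.08 (SE; limma adjusted p 1.6e-15). AURKA in SU-DHL6 at day 6 was 11.64, 11.65 and 11.80 with DMSO and 11.34, 11.02 and 10.96 with 10xLCC, and fell by 0.59 ± 0.09 (SE; limma adjusted p 1.1e-05). For AURKA, Karpas422 showed 11.90, 11.85 and 11.83 with DMSO and 10.74, 10.76 and 10.89 with 10xLCC at day 6, and the level fell by 1.06 ± 0.08 (SE; limma adjusted p 8.7e-11). The AURKA groups did not overlap in any of the 3 lines. In Pfeiffer at day 4 AURKA was 11.76, 11.90 and 11.58 with DMSO and 11.47, 11.49 and 11.53 with 10xLCC, a difference of -0.25 ± 0.12 (SE; limma adjusted p 0.63) that did not pass.

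PLK4, which starts centriole duplication, was among the deepest and changed by -2.01 ± 0.12, -1.58 ± 0.12 and -1.79 ± 0.14 (SE) at day 6 in WSU-DLCL2, SU-DHL6 and Karpas422. TTK, the checkpoint kinase MPS1, changed by -1.54 ± 0.18, -0.91 ± 0.09 and -1.97 ± 0.14. PBK, a mitotic kinase of proliferating cells, changed by -1.69 ± 0.13, -2.28 ± 0.12 and -1.93 ± 0.18, so that its SU-DHL6 fall exceeded the median of that line's kinases of -0.85 by more than 1 log2 unit. NEK2, which separates centrosomes, and MELK, an embryonic and tumour kinase, had changes in SU-DHL6 of -0.80 ± 0.10 and -0.70 ± 0.08, and in Karpas422 of -1.35 ± 0.14 and -1.25 ± 0.09. TPX2 had -1.35 ± 0.07, -0.62 ± 0.09 and -1.70 ± 0.14 in the 3 lines. In SU-DHL6 at day 6 the covariate left 4 of these 8 kinases and activators called, PLK4, TTK, PBK and MELK.

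The spindle checkpoint, the anaphase-promoting complex and sister cohesion are represented by 10 genes. At 10xLCC day 6 all 10 fell in WSU-DLCL2 and Karpas422 (19.2% of all genes in each) and 9 in SU-DHL6 (26.7%). TRIP13, an ATPase that remodels the checkpoint protein MAD2, was called at day 2 in both WSU-DLCL2 and Karpas422. WSU-DLCL2 arrays of day 2 gave TRIP13 values of 10.91, 10.95 and 10.98 with DMSO and 9.98, 10.11 and 9.93 with 10xLCC, and the gene fell by 0.94 ± 0.08 (SE; limma adjusted p 2.2e-09). TRIP13 in Karpas422 at day 2 was 10.99, 10.91 and 10.84 with DMSO and 10.49, 10.41 and 10.25 with 10xLCC, and fell by 0.53 ± 0.11 (SE; limma adjusted p 0.0015). With DMSO at day 4, SU-DHL6 had TRIP13 at 10.33, 10.48 and 10.43, and with 10xLCC at 9.67, 9.75 and 9.69; the gene fell by 0.71 ± 0.10 (SE; limma adjusted p 4e-06). TRIP13 was the 1 member called in Karpas422 at day 2, and its 3 treated arrays lay below the DMSO arrays in all 3 lines at these times. By day 6 its Karpas422 arrays read 10.69, 10.68 and 10.62 with DMSO and 8.14, 7.92 and 8.22 with 10xLCC, a 5.93-fold fall and the largest there (-2.57 ± 0.11, SE). In SU-DHL6 at day 6 they were 10.24, 10.24 and 10.44 and 8.76, 9.02 and 8.66, a change of -1.50 ± 0.10. TRIP13 in Pfeiffer at day 6 was 11.07, 11.08 and 11.02 with DMSO and 10.94, 10.98 and 11.11 with 10xLCC, and differed by -0.05 ± 0.12 (SE; limma adjusted p 1), which did not pass the test. The Pfeiffer groups overlapped.

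BUB3 feeds both the checkpoint and the kinetochore. WSU-DLCL2 arrays of day 6 gave BUB3 values of 12.65, 12.74 and 12.67 with DMSO and 12.05, 11.91 and 12.11 with 10xLCC, and the gene fell by 0.66 ± 0.08 (SE; limma adjusted p 2.9e-07). BUB3 in SU-DHL6 at day 6 was 12.65, 12.65 and 12.70 with DMSO and 11.54, 11.70 and 11.41 with 10xLCC, and fell by 1.12 ± 0.09 (SE; limma adjusted p 7.6e-11). With DMSO at day 6, Karpas422 had BUB3 at 11.91, 11.67 and 11.73, and with 10xLCC at 10.40, 9.99 and 10.25; the gene fell by 1.56 ± 0.17 (SE; limma adjusted p 1.8e-08). The groups were apart in each line, but the Karpas422 DMSO arrays had themselves dropped by about 1 from days 2 and 4, when they read 12.81, 12.77 and 12.76 and 12.75, 12.67 and 12.71. Its other 5 probe sets gave -0.70 to 0.05 in SU-DHL6 at day 6 and -0.73 to 0.01 in Karpas422, against -0.55 to -0.35 in WSU-DLCL2. The beta-actin ratio was raised with 10xLCC in the first pair of lines, and its part in this spread was not tested. BUB3 in Pfeiffer at day 6 was 12.44, 12.48 and 12.43 with DMSO and 12.40, 12.43 and 12.42 with 10xLCC, and differed by -0.04 ± 0.11 (SE; limma adjusted p 1), which did not pass the test. The Pfeiffer groups met at 1 value. MAD2L1, the MAD2 that inhibits CDC20, changed by -1.30 ± 0.22, -2.45 ± 0.19 and -1.85 ± 0.18 at day 6 in WSU-DLCL2, SU-DHL6 and Karpas422. CDC20, which activates the anaphase-promoting complex, had -1.50 ± 0.08, -0.51 ± 0.09 and -1.61 ± 0.09, and UBE2C, the complex's ubiquitin-conjugating enzyme, -1.14 ± 0.09, -0.43 ± 0.08 and -1.51 ± 0.09. FBXO5 (EMI1), which inhibits the complex before mitosis, had -1.76 ± 0.15, -1.31 ± 0.11 and -1.69 ± 0.20.

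Regulators of sister cohesion fell with them, apart from separase in SU-DHL6. PTTG1, the securin, changed by -0.94 ± 0.07, -0.86 ± 0.08 and -1.07 ± 0.10 (SE) at day 6 in WSU-DLCL2, SU-DHL6 and Karpas422. ESPL1, the separase, fell in WSU-DLCL2 (-1.44 ± 0.11) and Karpas422 (-1.46 ± 0.09), and had -0.17 ± 0.11 in SU-DHL6, with a limma adjusted p of 0.21. SGO1 and SGO2, the shugoshins that shield centromeric cohesin, fell in each of the 3 lines at day 6, by 1.79 and 1.45 in WSU-DLCL2. The other SGO1 probe set differed by 0.20 ± 0.24 (SE) in SU-DHL6 where the chosen one fell by 1.01. Of the 10 checkpoint and cohesion genes, 5 were still called in SU-DHL6 with the covariate, MAD2L1, BUB3, TRIP13, FBXO5 and PTTG1.

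**Figure D3:**
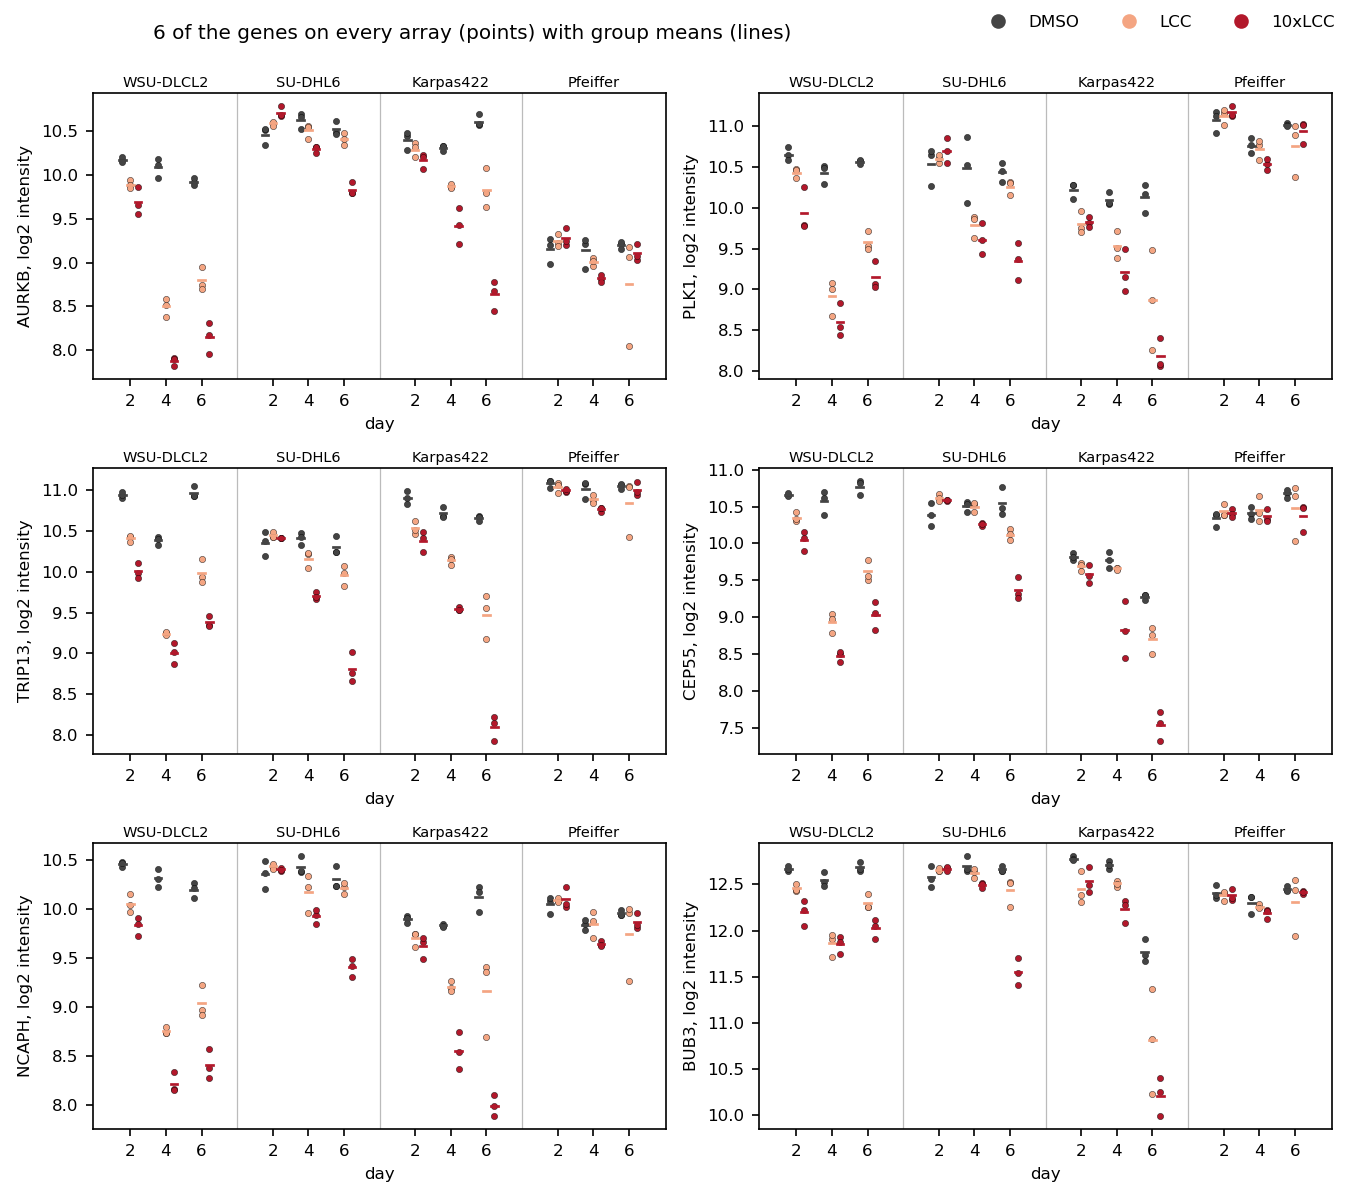
Log2 intensity of AURKB, PLK1, TRIP13, CEP55, NCAPH and BUB3 on every array (points) with group means (short lines), by line and day; dark grey is DMSO, light orange LCC and red 10xLCC. Red points fall below dark grey ones in WSU-DLCL2 by day 4 and in SU-DHL6 and Karpas422 by day 6, and they lie among or close to them in Pfeiffer, where 1 LCC array at day 6 is low.

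Spindle and centrosome proteins fell in 7, 6 and 7 of 8 members at 10xLCC day 6 in WSU-DLCL2, SU-DHL6 and Karpas422. Of all genes 19.2%, 26.7% and 19.2% fell there. CKAP2L (radmis) binds spindle microtubules and had the largest mean fall of this group at day 4. WSU-DLCL2 arrays of day 4 gave CKAP2L values of 9.54, 9.74 and 9.76 with DMSO and 7.46, 7.33 and 7.20 with 10xLCC, and the gene fell by 2.35 ± 0.09 (SE; limma adjusted p 5.3e-16). CKAP2L in SU-DHL6 at day 6 was 9.08, 8.87 and 9.37 with DMSO and 8.05, 8.28 and 8.11 with 10xLCC, and fell by 0.96 ± 0.16 (SE; limma adjusted p 1.7e-05). With DMSO at day 6, Karpas422 had CKAP2L at 8.69, 8.69 and 8.57, and with 10xLCC at 7.54, 7.05 and 7.05; the gene fell by 1.44 ± 0.13 (SE; limma adjusted p 6.1e-10). The WSU-DLCL2 groups were 2 log2 units apart at the closest arrays, and the SU-DHL6 and Karpas422 groups were also separate. CKAP2L in Pfeiffer at day 6 was 8.81, 8.61 and 8.55 with DMSO and 8.06, 8.65 and 8.25 with 10xLCC, and differed by -0.34 ± 0.16 (SE; limma adjusted p 0.95), which did not pass the test. One Pfeiffer array with 10xLCC lay within the DMSO range. DLGAP5 (HURP), which bundles kinetochore fibres, changed by -1.64 ± 0.13, -2.45 ± 0.17 and -1.93 ± 0.17 (SE) at day 6, the deepest mean of the 43. ASPM, which keeps the spindle poles focused, had -1.30 ± 0.10, -0.76 ± 0.08 and -2.24 ± 0.11, and HMMR, its partner at the poles, -0.92 ± 0.12, -0.65 ± 0.09 and -1.56 ± 0.11. NUSAP1, SPAG5 (astrin) and TACC3, which bind or stabilise spindle microtubules, had -0.97 ± 0.09, -0.93 ± 0.08 and -1.10 ± 0.11 in Karpas422. In SU-DHL6 they had -0.19 ± 0.07, -0.56 ± 0.08 and -0.07 ± 0.11, of which TACC3 was not called (limma adjusted p 0.62). The covariate left DLGAP5 and ASPM called in this group in SU-DHL6, 2 of the 6.

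CKAP2, a spindle microtubule protein related to CKAP2L, had 3 probe sets that moved in different directions. The probe set with the highest mean had changes of -0.04 ± 0.11, 0.02 ± 0.10 and -0.35 ± 0.14 (SE) at 10xLCC day 6 in WSU-DLCL2, SU-DHL6 and Karpas422, none called when tested beside the other probe sets. Probe set 230128_at rose by 1.96 ± 0.11, 1.08 ± 0.12 and 2.93 ± 0.16 in the same lines (limma adjusted p 4.1e-13, 4.3e-08 and 5e-14). In Karpas422 at day 6 it read 5.90, 6.04 and 6.16 with DMSO, 8.15, 8.10 and 7.57 with LCC and 8.94, 8.89 and 9.06 with 10xLCC, so the 3 doses were fully separate and in order. In WSU-DLCL2 it was already higher at day 2, with 5.92, 6.25 and 6.20 for DMSO and 7.91, 7.98 and 7.83 for 10xLCC. SU-DHL6 began at a far higher level, 9.96, 9.96 and 9.84 with DMSO at day 6, and Pfeiffer showed 0.08 ± 0.11. The third probe set, 1554264_at, fell by 0.68 in SU-DHL6 and by 0.62 in Karpas422. The array annotation names CKAP2 for all 3; which transcript each detects was not examined here. The mean of the probe sets turns the direction in WSU-DLCL2, to 0.26 at day 2 and 0.04 at day 4, where the chosen one fell by 0.33 and 0.68.

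**Figure D4:**
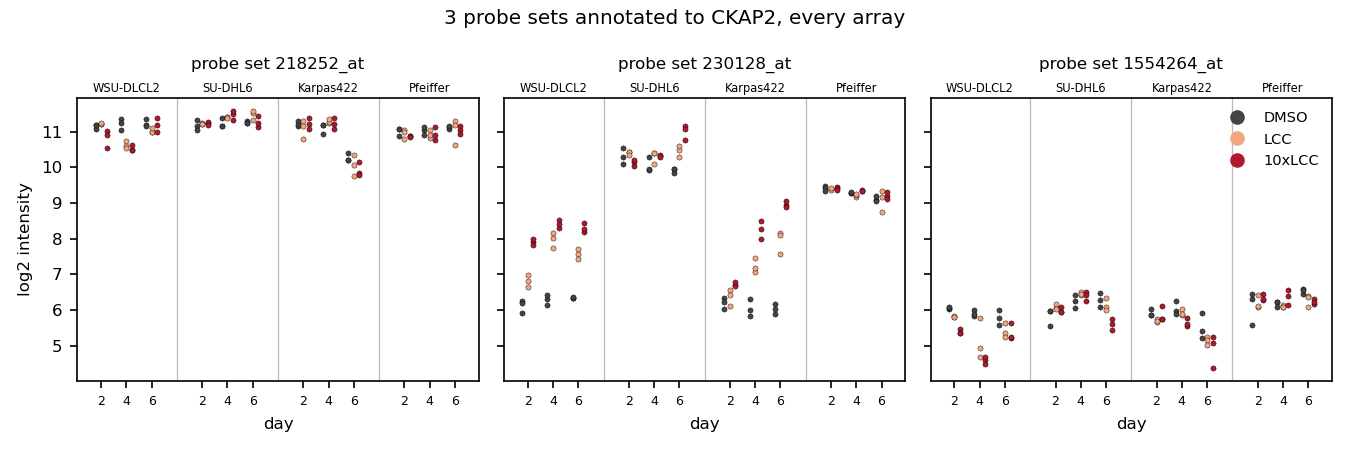
Log2 intensity of the 3 probe sets annotated to CKAP2 on each array, by line and day, for DMSO (dark grey), LCC (light orange) and 10xLCC (red). Probe set 230128_at climbs with dose in WSU-DLCL2 and Karpas422 from about 6 with DMSO to 8.96 at the mean of 10xLCC day 6 in Karpas422, while the other 2 stay level or drop in these lines.

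All 5 cytokinesis genes fell at 10xLCC day 6 in WSU-DLCL2 (19.2% of all genes), SU-DHL6 (26.7%) and Karpas422 (19.2%). CEP55 recruits the abscission machinery to the midbody. WSU-DLCL2 arrays of day 4 gave CEP55 values of 10.38, 10.70 and 10.61 with DMSO and 8.50, 8.53 and 8.39 with 10xLCC, and the gene fell by 2.10 ± 0.10 (SE; limma adjusted p 2.2e-14). CEP55 in SU-DHL6 at day 6 was 10.77, 10.40 and 10.48 with DMSO and 9.54, 9.31 and 9.26 with 10xLCC, and fell by 1.18 ± 0.10 (SE; limma adjusted p 1.7e-10). With DMSO at day 6, Karpas422 had CEP55 at 9.30, 9.23 and 9.30, and with 10xLCC at 7.32, 7.57 and 7.71; the gene fell by 1.74 ± 0.13 (SE; limma adjusted p 3.6e-11). In each line the highest treated array was below the lowest control. CEP55 in Pfeiffer at day 6 was 10.69, 10.72 and 10.62 with DMSO and 10.49, 10.48 and 10.15 with 10xLCC, and differed by -0.30 ± 0.14 (SE; limma adjusted p 0.93), which did not pass the test. Here too the 10xLCC arrays were below the DMSO arrays, but the difference was small and was not called. ECT2, the exchange factor that activates RhoA at the midzone, changed by -1.76 ± 0.13, -1.73 ± 0.13 and -1.12 ± 0.16 (SE) at day 6. ANLN (anillin), the scaffold of the contractile ring, had -1.69 ± 0.12, -0.72 ± 0.12 and -1.25 ± 0.11. PRC1, which bundles the central spindle, had -1.15 ± 0.07, -0.47 ± 0.08 and -1.39 ± 0.09, and RACGAP1, its centralspindlin partner, -0.83 ± 0.09, -0.70 ± 0.09 and -0.54 ± 0.10. ECT2 and RACGAP1 were the members of this group not called in Karpas422 at day 4, at -0.37 ± 0.16 and -0.16 ± 0.10. ECT2 and CEP55 were the 2 of the 5 still called in SU-DHL6 at day 6 when the beta-actin ratio was a covariate.

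Condensin and the other chromosome proteins fell in all 7 members in WSU-DLCL2 and Karpas422 at 10xLCC day 6 (19.2% of all genes in each). In SU-DHL6 4 of 7 fell (26.7% of all genes) and 1 rose (19.8%). NCAPH, the kleisin of condensin I, had the largest mean fall of the 43 at day 4 (-1.29 over the 3 Y641 lines). WSU-DLCL2 arrays of day 4 gave NCAPH values of 10.22, 10.40 and 10.30 with DMSO and 8.17, 8.34 and 8.16 with 10xLCC, and the gene fell by 2.08 ± 0.09 (SE; limma adjusted p 1.7e-15). NCAPH in SU-DHL6 at day 4 was 10.37, 10.38 and 10.54 with DMSO and 9.94, 9.85 and 9.99 with 10xLCC, and fell by 0.50 ± 0.09 (SE; limma adjusted p 0.00028). With DMSO at day 4, Karpas422 had NCAPH at 9.85, 9.82 and 9.81, and with 10xLCC at 8.54, 8.75 and 8.37; the gene fell by 1.27 ± 0.13 (SE; limma adjusted p 2.9e-08). Treated and control arrays did not overlap in any of the 3 lines, and in Karpas422 the gap was just over 1 log2 unit. NCAPH in Pfeiffer at day 4 was 9.85, 9.89 and 9.78 with DMSO and 9.67, 9.63 and 9.62 with 10xLCC, and differed by -0.20 ± 0.13 (SE; limma adjusted p 0.76), which did not pass the test. The Pfeiffer 10xLCC arrays lay below the DMSO arrays by 0.11 or more at day 4 without passing the test. MKI67 encodes Ki-67, which coats mitotic chromosomes and is the usual marker of proliferating cells. WSU-DLCL2 arrays of day 4 gave MKI67 values of 10.52, 10.78 and 10.70 with DMSO and 8.06, 8.08 and 8.14 with 10xLCC, and the gene fell by 2.57 ± 0.09 (SE; limma adjusted p 2.4e-16). MKI67 in SU-DHL6 at day 6 was 11.28, 11.42 and 11.59 with DMSO and 11.23, 10.91 and 10.85 with 10xLCC, and fell by 0.43 ± 0.11 (SE; limma adjusted p 0.0016). With DMSO at day 6, Karpas422 had MKI67 at 10.54, 10.40 and 10.42, and with 10xLCC at 8.91, 9.01 and 9.01; the gene fell by 1.48 ± 0.09 (SE; limma adjusted p 1.2e-12). The WSU-DLCL2 fall, 5.96-fold, was the largest of the 43 there at day 4. No groups overlapped, but in SU-DHL6 the closest arrays were only 0.05 apart. In Pfeiffer at day 4 MKI67 was 10.25, 10.38 and 10.09 with DMSO and 9.83, 9.82 and 9.93 with 10xLCC, a difference of -0.38 ± 0.13 (SE; limma adjusted p 0.41).

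The 2 ATPases shared by condensin I and II parted in SU-DHL6. SMC2 changed by -1.72 ± 0.14, -1.73 ± 0.12 and -1.87 ± 0.24 (SE) at 10xLCC day 6 in WSU-DLCL2, SU-DHL6 and Karpas422, and SMC4 by -1.07 ± 0.08, 0.32 ± 0.07 and -0.82 ± 0.08. SMC4 thus rose in SU-DHL6 (limma adjusted p 0.00076), and it also rose with LCC at day 6 (0.25 ± 0.07). The other SMC4 probe sets disagreed there, at -0.46 ± 0.08 and 0.83 ± 0.18, and with the beta-actin covariate no member rose. NCAPG, a condensin I HEAT-repeat subunit, had -1.49 ± 0.14, -0.57 ± 0.11 and -1.69 ± 0.11. NCAPD2, the second such subunit, had -0.80 ± 0.12 and -1.31 ± 0.11 in WSU-DLCL2 and Karpas422 and -0.11 ± 0.14 in SU-DHL6 (limma adjusted p 0.54). TOP2A, which untangles sister chromatids, had -1.07 ± 0.07 and -1.46 ± 0.14, and -0.17 ± 0.09 in SU-DHL6 (limma adjusted p 0.12). Its other probe sets were at 0.21 and 0.29 in SU-DHL6. MKI67 there ranged from -1.20 to 0.06 over its other probe sets. NCAPH and SMC2 were the 2 of 4 calls of this group that held in SU-DHL6 with the covariate.

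FOXM1, the forkhead factor that drives many of these genes, fell with them. For FOXM1, WSU-DLCL2 showed 9.87, 10.09 and 10.06 with DMSO and 8.20, 8.24 and 8.23 with 10xLCC at day 4, and the level fell by 1.78 ± 0.08 (SE; limma adjusted p 1.3e-14). FOXM1 in SU-DHL6 at day 4 was 10.24, 10.02 and 10.62 with DMSO and 9.79, 9.99 and 9.92 with 10xLCC, and fell by 0.39 ± 0.12 (SE; limma adjusted p 0.023). The DMSO arrays of Karpas422 at day 6 read 10.19, 10.05 and 10.14 for FOXM1 and the 10xLCC arrays 8.55, 8.47 and 8.71; it fell by 1.55 ± 0.11 (SE; limma adjusted p 5.1e-12). No groups overlapped; in SU-DHL6 the fall at day 4 was small and the DMSO arrays spread over 0.6 log2 units, whereas the other lines showed wide gaps. With LCC FOXM1 fell in SU-DHL6 at day 4 (-0.41 ± 0.12, SE), 1 of the 2 members called there with PLK1; without DMSO day 4 replicate C, 0 were called. The FOXM1 call in SU-DHL6 at 10xLCC day 6 was lost with the beta-actin covariate. FOXM1 in Pfeiffer at day 4 was 9.65, 9.57 and 9.44 with DMSO and 9.23, 9.31 and 9.33 with 10xLCC, and differed by -0.26 ± 0.13 (SE; limma adjusted p 0.66), which did not pass the test. The Pfeiffer arrays with 10xLCC at day 4 were all below the DMSO arrays.

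At the lower dose the median falls were smaller in WSU-DLCL2 and Karpas422, and few genes passed the test in SU-DHL6. In WSU-DLCL2 5 genes fell at LCC day 2 (2.99% of all genes), 42 at day 4 (12.6%) and 42 at day 6 (11.2%), with medians of -0.20, -1.28 and -0.92. The 5 at day 2 were MELK, TRIP13, PRC1, NCAPH and MKI67. In Karpas422 0 fell at day 2 by limma (0.403% of all genes; 5 at an unadjusted p under 0.05), 13 at day 4 (2.98%) and 35 at day 6 (14.6%), with a median of -0.57 at day 6. In SU-DHL6 0 fell at day 2 (0.392% of all genes; 0 at an unadjusted p under 0.05), 2 at day 4 (2.61%) and 10 at day 6 (7.69%). In Pfeiffer limma called 0 at all 3 days (0% of all genes; at an unadjusted p under 0.05, 3 were lower at day 6 and 0 at days 2 and 4). Compared directly at day 6, 10xLCC was lower than LCC for 33 genes in WSU-DLCL2 (9.07% of all genes), 38 in SU-DHL6 (15.6%) and 40 in Karpas422 (8.64%), and for 0 in Pfeiffer by limma (0.0422%; 0 lower and 1 higher at an unadjusted p under 0.05). The median step was -0.45, -0.62 and -0.95 in the first 3. TRIP13 and ASPM had the largest steps in Karpas422, -1.38 ± 0.11 and -1.37 ± 0.11 (SE), and MAD2L1 and DLGAP5 in SU-DHL6, -1.72 ± 0.19 and -1.67 ± 0.17. Without replicate B of 10xLCC day 6 the count in WSU-DLCL2 was 21, and with the beta-actin covariate that in SU-DHL6 was 14.

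A few members were called higher, all in SU-DHL6. At 10xLCC day 2, AURKB (0.25 ± 0.08, SE; limma adjusted p 0.049) and TOP2A (0.30 ± 0.09; adjusted p 0.023) were higher than DMSO, when 7.86% of all genes were called higher. Without DMSO day 2 replicate A, the array of that line farthest from its group, neither was called, nor with arrays centred on bright genes. HMMR was higher at LCC day 4 (0.32 ± 0.09; limma adjusted p 0.022; 5.80% of all genes), and SMC4 at day 6 with both doses (10.2% of all genes with LCC and 19.8% with 10xLCC).

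The time course was tested as a difference between days in the effect of 10xLCC. In WSU-DLCL2 the effect grew from day 2 to day 4 for 38 genes (5.31% of all genes), led by ASPM (-1.95 ± 0.14, SE) and MKI67 (-1.92 ± 0.13), and then shrank. From day 4 to day 6 the difference from DMSO shrank for 21 genes (6.01% of all genes were called in that direction), among them MKI67 (1.0 ± 0.13), NEK2 (0.94 ± 0.12), CKAP2L (0.89 ± 0.13) and PRC1 (0.86 ± 0.11). Both sides moved: the DMSO means went from 10.67 to 10.18, 11.04 to 10.70, 9.68 to 9.30 and 12.24 to 11.90 in that order. Their 10xLCC means went from 8.09 to 8.61, 9.04 to 9.64, 7.33 to 7.83 and 10.22 to 10.75. For SGO1 the difference was larger at day 6 (-1.16 ± 0.21), the 1 member called so (9.32% of all genes), and TRIP13 kept its fall (-0.20 ± 0.11, not called). The 10xLCC mean of SGO1 was 6.42 at day 4 and 6.45 at day 6, while its DMSO mean went from 7.06 to 8.25. The other SGO1 probe set showed no such step, with changes of -1.4 at day 4 and -1.39 at day 6. In the other Y641 lines the effect grew to the end: from day 4 to day 6 by 27 genes in SU-DHL6 (13.2% of all genes) and 34 in Karpas422 (3.09%), with medians of -0.49 and -0.82. From day 2 to day 4 it grew for 8 genes in SU-DHL6 (4.37%) and 17 in Karpas422 (2.17%). DLGAP5 had the largest late step in SU-DHL6 (-2.41 ± 0.24). With the beta-actin covariate 1 gene in place of 27 was called for the late step there, and the share of all genes in that fit is not given here. Pfeiffer had 0 genes called by limma for either step (0% of all genes; at an unadjusted p under 0.05, 1 was lower for the first and 6 for the second).

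With the vehicle alone limma called 22 of the 43 genes in Karpas422, 1 in SU-DHL6, 6 in WSU-DLCL2 and 0 in Pfeiffer between days 2 and 6. Between days 2 and 6 of DMSO, 16 genes fell in Karpas422 (16.3% of all genes) and 6 rose (15.1%). MAD2L1 (-2.21 ± 0.18, SE), DLGAP5 (-1.59 ± 0.17), PBK (-1.22 ± 0.18), SMC2 (-1.16 ± 0.24), ECT2 (-1.08 ± 0.16) and BUB3 (-1.01 ± 0.17) fell the most, and ESPL1 (0.52 ± 0.09), CDC20 (0.48 ± 0.09), NCAPG (0.43 ± 0.11) and UBE2C (0.43 ± 0.09) rose. The beta-actin ratio of these controls went from -0.03 to 1.25 over the same days, and with it as a covariate 10 fell and 9 rose. The same 6 genes, in the same order, had -2.45, -2.45, -2.28, -1.73, -1.73 and -1.12 in SU-DHL6 at 10xLCC day 6, where the ratio was also higher than in the controls of that day; the part of RNA quality in these values was not tested further. In WSU-DLCL2 5 genes fell with DMSO from day 2 to day 6 (8.44% of all genes) and 1 rose (3.65%). In SU-DHL6 TTK rose (0.39 ± 0.09; 2.96% of all genes) and 0 fell by limma (0.582%; 1 at an unadjusted p under 0.05), while MAD2L1 had 0.54 ± 0.19 (SE; limma adjusted p 0.11). With arrays centred on bright genes 4 fell and 1 rose there, when 463 of all genes were called lower and 438 higher. In Pfeiffer limma called 0 lower (0% of all genes; 0 at an unadjusted p under 0.05) and 0 higher (0.00528%; 10 at an unadjusted p under 0.05), with MAD2L1 at 0.66 ± 0.13 (SE; limma adjusted p 0.097) and TTK at 0.56 ± 0.16 (limma adjusted p 0.19). In that line 1 fell and 7 rose with arrays centred on bright genes, when 168 of all genes were called lower and 379 higher. Without LCC day 6 replicate B 9 were called, and the share of all genes in that fit is not given here.

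The difference between Pfeiffer and the Y641 lines was tested directly in 1 model of all arrays. It sets 1 line against 3, and its p-values measure the spread between arrays of a group, not between lines. The Y641 mean at 10xLCC day 4 joins lines with median changes of -1.80 (WSU-DLCL2), -0.22 (SU-DHL6) and -0.64 (Karpas422), beside -0.11 in Pfeiffer. The effect of 10xLCC in Pfeiffer, minus the mean effect in the 3 Y641 lines, was above 0 for 41 genes at day 4 (7.62% of all genes) and 42 at day 6 (14.7%), with medians of 0.77 and 1.08 beside 0.00 and 0.05 for all genes. TRIP13 differed most at day 6 (1.84 ± 0.11, SE; limma adjusted p 2.2e-24), followed by DLGAP5 (1.74 ± 0.18), PLK4 (1.63 ± 0.15) and PBK (1.62 ± 0.17). CKAP2 was not called on either day (0.01 ± 0.14 and 0.04 ± 0.14), and BUB3 was not called at day 4 (0.35 ± 0.14; limma adjusted p 0.067). With arrays centred on bright genes the counts were 40 and 41, the median of all genes moved to -0.10 and -0.15, and the split of all called genes went from 1464 higher and 1470 lower to 1411 and 2663 at day 4, and from 2834 and 2281 to 1955 and 4283 at day 6. Doses were set per line, so this compares labelled doses and not equal concentrations. Within Pfeiffer the changes of the 43 ran from -0.38 to 0.35 at day 4 and from -0.47 to 0.07 at day 6. With 10xLCC, 15 genes at day 4 and 20 at day 6 had every treated array below every DMSO array, where 9.54% and 7.53% of all genes did. At an unadjusted p under 0.05, 6 were lower and 2 higher at day 4, and 9 were lower at day 6. Without the distant LCC day 6 replicate B, limma called 6 genes lower at day 4 and 4 at day 6. They were AURKB, AURKA, TPX2, TRIP13, NCAPD2 and MKI67 at day 4, from -0.38 to -0.25, and PBK, ASPM, ANLN and ECT2 at day 6, from -0.47 to -0.31. The share of all genes called lower in that fit is not given here.

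Neighbouring parts of the division machinery were taken from lists of related complexes at 10xLCC day 6, when 19.2%, 26.7% and 19.2% of all genes fell and 17%, 19.8% and 18.4% rose in WSU-DLCL2, SU-DHL6 and Karpas422. All 3 subunits of condensin II fell in WSU-DLCL2, SU-DHL6 and Karpas422, NCAPG2 by 1.71, 0.80 and 1.39. Of 13 cohesin subunits and regulators, 11, 10 and 9 fell in the 3 lines, led by CDCA5 (sororin), which protects cohesion, with -1.75 ± 0.08, -1.17 ± 0.08 and -1.86 ± 0.09 (SE). Of 9 genes of the phosphatase switch for mitotic entry, 7, 5 and 9 fell, CDC25A, which activates cyclin-dependent kinases, by 2.10, 1.10 and 1.64. Of 15 tested genes of augmin and the gamma-tubulin ring, which nucleate spindle microtubules, 12, 9 and 10 fell, TUBG1 by 1.09, 0.84 and 1.36. Of 8 centriole duplication genes 5 fell in each line, and STIL had -1.52 ± 0.11, -0.61 ± 0.13 and -1.37 ± 0.10. Among the core subunits of the anaphase-promoting complex 7, 8 and 5 of 15 fell and 2, 4 and 3 rose. Of the 10 tested ESCRT genes of abscission 3, 3 and 0 fell and 2, 1 and 3 rose. In Pfeiffer limma called none of the genes of these 7 lists in either direction at day 6, with list medians between -0.13 and 0.03.

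Of 12 genes of the MuvB, DREAM and B-MYB list, 7, 9 and 5 fell and 2 rose in each of WSU-DLCL2, SU-DHL6 and Karpas422. MYBL2 (B-MYB), which activates G2/M promoters with MuvB, had -1.59 ± 0.10, -0.94 ± 0.10 and -1.96 ± 0.09 (SE), and -0.10 ± 0.11 in Pfeiffer. RBL2 (p130), the pocket protein of the repressive DREAM complex in resting cells and singled out after its values were seen, rose by 0.53 ± 0.11, 0.92 ± 0.10 and 0.69 ± 0.10 (limma adjusted p 0.00048, 1.9e-08 and 2.6e-06). TFDP2, a dimer partner of E2F factors, rose by 2.65 ± 0.13 in WSU-DLCL2, fell by 0.59 ± 0.12 in SU-DHL6 and had -0.37 ± 0.16 in Karpas422, which was not called.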

How the data were processed

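RNA of 108 samples was measured on an Affymetrix array with 54675 probe sets, of which 41097 name 1 gene, 1801 several and 11777 none. The deposited values are linear intensities normalized by the authors with GCRMA, per the submitters' processing notes; the version and array background settings are not given in the sources used here. Values ran from 5.79 to 31846 and were taken as log2 with a pseudocount of 0. Each of 19775 genes was represented by its probe set of highest mean. Genes at log2 4 or more on at least 3 of a line's 27 arrays were tested. limma 3.58.1 (lmFit and eBayes; R 4.3.3, data.table version 1.17.8) fitted the 9 groups of a line together, with Benjamini-Hochberg adjustment over all genes tested and a threshold of 0.05; comparisons between lines used a model of all 108 arrays. All treated groups of a line and day share the same DMSO arrays. Figures used Python 3.11.15, pandas 2.3.3 and matplotlib 3.10.9.

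The members, gene lists and tests were chosen with earlier results of these data known. Members shown array by array were named by rule: in each role group the one with the largest mean fall at 10xLCC day 4 over the Y641 lines, with FOXM1, MKI67, AURKA and BUB3. Members that rose, and members that did not fall at 10xLCC day 6 in a Y641 line, were all named, and of other lists the members with the smallest p. On simulated data for WSU-DLCL2 10xLCC day 6 (18816 genes) limma recovered 99% of changes of 1 log2 unit and 62% of those of 0.5, with 12 false calls. Array number limits precision. Alternatives covered the filter, the probe set rule, centring, trend and robust fits, the groups fitted, the replicate letter as a block, the beta-actin covariate and each array left out. The median correlation of same-letter deviations, pooled over doses and days, was -0.01 to 0.02 over the 4 lines, so arrays were not treated as paired. Single pairs ran from -0.54 to 0.45, and pairing within a day was not tested apart.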

Additional observations from a re-analysis of the deposited data

Results flagged for a closer look

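The effect of 10xLCC differed between days within each Y641 line, by a test of the difference itself. From day 2 to day 4 limma called 38 of the 43 genes lower for WSU-DLCL2 (5.31% of all genes), 8 for SU-DHL6 (4.37%) and 17 for Karpas422 (2.17%). From day 4 to day 6 it called 22 for WSU-DLCL2. The difference from DMSO of the same day was smaller at day 6 for 21 of them (6.01% of all genes) and larger for 1, SGO1 (9.32%). It called 27 for SU-DHL6 (13.2%) and 34 for Karpas422 (3.09%), all lower. With the beta-actin covariate the 27 became 1.

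The effect also differed between Pfeiffer and the mean of the Y641 lines, for 41 genes at day 4 (7.62% of all genes) and 42 at day 6 (14.7%). These calls rest on the spread between arrays and not on that between lines. Among the genes shown on every array, the log2 difference at day 4 was 0.83 for AURKB, 0.60 for AURKA, 0.97 for PLK1, 0.84 for TRIP13, 0.90 for CKAP2L, 1.06 for CEP55, 1.08 for NCAPH, 0.80 for MKI67 and 0.72 for FOXM1. At day 6 it was 1.39 for AURKB, 0.90 for AURKA, 1.40 for PLK1, 1.08 for BUB3, 1.84 for TRIP13, 0.95 for CKAP2L, 1.25 for CEP55, 1.51 for NCAPH, 1.07 for MKI67 and 1.10 for FOXM1.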

How the results depend on the processing

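Of 708 counts of member genes recomputed under an alternative, 649 stayed within 1.5 times and 59 moved. The 649 include counts of 0 that stayed 0. Of single-gene values, 3534 kept their direction and call, 143 lost the call and 2 reversed. These cover only members called at 10xLCC against DMSO in the main fit. Both tallies include the fits with each array left out, so they do not measure how robust the results are. Averaging a gene's probe sets reversed CKAP2 in WSU-DLCL2 10xLCC, to 0.26 at day 2 and 0.04 at day 4. With the groups compared alone in the fit, WSU-DLCL2 gave 24 (of 5) at LCC day 2, 11 (of 33) for 10xLCC against LCC, 14 (of 22) from day 4 to day 6 and 12 (of 6) for DMSO; SU-DHL6 gave 1 (of 2) at LCC day 4, 0 (of 1) for DMSO by limma and 2 (of 8) from day 2 to day 4; Karpas422 gave 2 (of 0) at LCC day 2, 4 (of 1) at 10xLCC day 2 and 23 (of 35) at LCC day 6. At LCC day 2 WSU-DLCL2 gave 9 with the filter at log2 6 and 8 with trend and robust estimates. Karpas422 there gave 2 with that filter, with centring and with trend and robust estimates, 2 without LCC day 6 replicate C, and 1 with the mean of probe sets and with the covariate. With the replicate block it also gave 1, and the block moved no other count by over 1.5 times. Karpas422 10xLCC day 2 gave 2 with the mean of probe sets and with the covariate. Centring gave 6 (of 2) in SU-DHL6 LCC day 4 and 5 (of 1) for its DMSO, and in Pfeiffer, where 0 were called, 6 at 10xLCC day 4, 4 at day 6, 5 against LCC, 3 from day 4 to day 6 and 8 for DMSO. Without LCC day 6 replicate B, Pfeiffer gave 6, 4, 2 against LCC and 9 for DMSO. The covariate gave 4 (of 10) in SU-DHL6 LCC day 6, 17 (of 37) in 10xLCC day 6, 14 (of 38) against LCC and 1 (of 27) from day 4 to day 6, and 29 (of 17) in Karpas422 from day 2 to day 4. The cause was not tested. The counts of this section carry no share of all genes, which moved too. Centring took Pfeiffer 10xLCC day 4 from 3 to 252 of all genes called lower. Leaving out each array in turn gave 3 to 3 for WSU-DLCL2 LCC day 2 and 21 to 36 for its 10xLCC against LCC (21 without 10xLCC day 6 replicate B). In SU-DHL6 it gave 5 to 22 from day 2 to day 4 (5 without DMSO day 4 C, 22 without DMSO day 2 C), 0 to 3 for DMSO (0 without DMSO day 6 A, 3 without DMSO day 2 C), 0 to 2 at LCC day 4 (0 without DMSO day 4 C), 10 to 14 at 10xLCC day 4 (10 without DMSO day 4 C or 10xLCC day 4 C) and 6 to 11 at LCC day 6 (6 without LCC day 6 C). In Karpas422 it gave 0 to 2 at LCC day 2 (2 without LCC day 2 B), 1 to 2 at 10xLCC day 2 (2 without 10xLCC day 2 A) and 10 to 23 from day 2 to day 4 (10 without DMSO day 2 C). In Pfeiffer it gave 0 to 4 against LCC (4 without LCC day 6 A, 2 without B). With 3 arrays a group, 62% of shifts of 0.5 log2 were recovered in the simulation of WSU-DLCL2, so smaller shifts may be missed. The other lines were not simulated, and the share recovered there is not known.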
